A study of Mus musculus with 6 samples.

Results

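The 10 genes described here encode the enzymes that set the flux between fructose 6-phosphate and fructose bisphosphates: the phosphofructokinase isozymes Pfkl, Pfkm and Pfkp, the bifunctional regulators Pfkfb1, Pfkfb2, Pfkfb3 and Pfkfb4, the phosphatase Tigar, and the fructose bisphosphatases Fbp1 and Fbp2. They were taken by name from the 35968 mouse genes that have a transcript in the quantified RNA-seq libraries. RNA was sequenced from MS-5 cells, an established mouse bone marrow stromal line, cultured alone (MS-5 only, libraries MO1, MO2 and MO3) or kept for 24 hr with SKM-1 cells, a human acute myeloid leukaemia (AML) line (co-culture, libraries MC1, MC2 and MC3). In co-cultures each stromal cell was plated with 4 AML cells, and AML cells were at 750000 per ml, in RPMI medium with serum in both groups per the study's methods, and AML cells were washed off and removed by mild trypsinisation before RNA was taken. Nothing in the labels says that the 3 libraries of a group came from separate cultures, so that p-values measure the spread between these libraries, which may be technical.

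Phosphofructokinase phosphorylates fructose 6-phosphate to fructose 1,6-bisphosphate, the first step that commits glucose to glycolysis, and works as a tetramer of liver (Pfkl), muscle (Pfkm) and platelet (Pfkp) type subunits. Its strongest activator is fructose 2,6-bisphosphate, which the PFKFB enzymes both make and break down. TIGAR breaks fructose 2,6-bisphosphate down, and its gene was first known as a target of p53. The fructose bisphosphatases run the phosphofructokinase step backwards in gluconeogenesis, FBP1 mainly in liver and kidney and FBP2 mainly in muscle.

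In co-culture Pfkl was the single gene of the group that passed the test, with a 3.02-fold higher level (log2 fold change 1.60 ± 0.23, SE; 3 libraries against 3). Its share of the phosphofructokinase transcripts went from 46.2% ± 3.29 to 66.8% ± 3.26 (SD, n = 3 each), so that co-cultured MS-5 libraries held mostly liver-type transcripts where libraries of MS-5 cells alone held near equal amounts of Pfkl and Pfkm. Pfkm, Pfkp and Tigar had groups that did not overlap in normalised counts (Pfkm overlapped per length, on TPM) but missed the threshold, with log2 fold changes of 0.25 ± 0.13, 0.49 ± 0.15 and -0.66 ± 0.18 (SE). Of all genes tested, 4.38% passed the test and 21.2% had groups that did not overlap in normalised counts. The PFKFB genes had large spreads within groups and overlapping values, and no read was assigned to Fbp1 or Fbp2 in any library.

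The promoters of the 4 genes whose groups did not overlap in normalised counts are shown here as the 250 bases before the RefSeq start site (GRCm38.p6), 5′ to 3′ on the strand of the gene, to place the loci in the genome and to show the short motif that hypoxia-inducible factors bind in many glycolytic promoters. Capitals mark ACGTG and GCGTG on either strand. Because the palindrome CACGTG, which MYC and USF factors also bind, holds ACGTG on both strands, it counts for both orientations. The Pfkl window is chr10:78009808-78010057 on the minus strand, and GENCODE M21 places the start of its main transcript, Pfkl-201, at the same base as RefSeq, while the annotated transcript Pfkl-202 reaches past the window to 78010083. The Pfkm window is chr15:98108221-98108470 on the plus strand, 5 bases from the start of its main transcript Pfkm-201 and inside the Pfkm locus, which begins at an earlier first exon. The Pfkp window is chr13:6648772-6649021 on the minus strand and the Tigar window is chr6:127109553-127109802 on the minus strand.
Pfkl: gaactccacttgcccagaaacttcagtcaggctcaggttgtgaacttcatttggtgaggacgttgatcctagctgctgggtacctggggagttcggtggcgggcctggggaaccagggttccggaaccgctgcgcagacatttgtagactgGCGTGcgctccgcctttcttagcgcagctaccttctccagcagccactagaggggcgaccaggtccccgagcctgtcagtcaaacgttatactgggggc
Pfkm: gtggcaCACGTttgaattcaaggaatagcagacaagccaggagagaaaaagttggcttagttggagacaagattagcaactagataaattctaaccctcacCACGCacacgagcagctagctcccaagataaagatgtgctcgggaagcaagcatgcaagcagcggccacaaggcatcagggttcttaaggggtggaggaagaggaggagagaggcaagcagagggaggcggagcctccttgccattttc
Pfkp: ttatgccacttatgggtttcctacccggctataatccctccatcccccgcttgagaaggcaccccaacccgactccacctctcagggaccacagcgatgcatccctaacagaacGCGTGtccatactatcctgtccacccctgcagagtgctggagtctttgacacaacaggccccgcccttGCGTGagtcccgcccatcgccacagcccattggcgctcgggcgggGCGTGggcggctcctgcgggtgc
Tigar: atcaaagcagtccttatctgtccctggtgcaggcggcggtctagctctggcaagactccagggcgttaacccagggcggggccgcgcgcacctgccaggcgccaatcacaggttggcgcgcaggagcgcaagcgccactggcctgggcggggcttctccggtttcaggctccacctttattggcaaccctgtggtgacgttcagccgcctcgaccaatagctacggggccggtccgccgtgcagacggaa
The Pfkp window held 3 matches to GCGTG, the Pfkl window 1 match to GCGTG, the Pfkm window 1 match to each motif, and the Tigar window none. Among the other members, at least 1 window of Pfkfb1, Pfkfb2, Pfkfb3, Pfkfb4 and Fbp2 held a match and that of Fbp1 held none, so that matches were not particular to the genes shown. GCGTG was found in 28.2% and ACGTG in 16.6% of the 32851 mouse promoter windows of this length, 38.6% held either motif, and 8.63% held GCGTG at least 2 times. A match in such a window is a description of its letters and not a binding site.

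The libraries held 23978881 to 27182453 estimated counts in MS-5 only and 26258451 to 35694987 in co-culture. MO2 and MC3 stood apart from the other 4 libraries, with estimated counts in 65170 and 66456 transcripts against 51533 to 57350, and with 6.03% and 5.89% of their counts in mitochondrially encoded genes against 10.5% to 13.1%. The MS-5 identity was visible in stromal markers, of which all 12 passed the filter on low counts and none passed the test (1 had an unadjusted p under 0.05, edgeR), with summed CPM (counts scaled to library size, TMM normalised) of 12424 to 15282 in MS-5 only and 13959 to 16734 in co-culture. Leukocyte markers were also counted. Of 20 listed, 17 passed the filter and 9 were higher in co-culture (Ptprc, Spi1, Irf8, Coro1a, Laptm5, Cd37, Rac2, Vav1 and Csf1r), and the summed CPM of the list was 74.4, 75.8 and 84.6 in MO1, MO2 and MO3 and 125.6, 417.3 and 118.3 in MC1, MC2 and MC3. Irf8 and Cd37 were at 0 in every MS-5 only library. Lcp1, Mpo, Was and Itgb2 were not called but lay above the MS-5 only mean in every co-culture library. At an unadjusted p under 0.05 (edgeR), 12 of the 17 markers were higher and 1 was lower. None was called lower, while Itgal was lower in every co-culture library (log2 fold change -0.73 ± 0.23, SE; adjusted p = 0.196, edgeR), Lyz2, Arhgdib and Cd53 had log2 fold changes of -0.37, -0.16 and -0.11, and Fcer1g, Tyrobp and Cd33 did not pass the filter. MC2 held 79.5% of the summed co-culture excess of these markers, and the share of MC2 is therefore given with the results.

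The phosphofructokinase isozymes were compared first, on TPM (a transcript level relative to all transcripts of the library, corrected for length), since levels of different genes can be set side by side only per length. Pfkl (chr10:77986947-78010083, minus strand) had TPM values of 87.2, 106.5 and 70.2 in MO1, MO2 and MO3 and 271.2, 200.7 and 290.4 in MC1, MC2 and MC3. The lowest co-culture library was well above the highest MS-5 only library, and MO2 and MC3 were the highest of their groups. On the CPM scale used for the test, the mean was 236 ± 32.8 in MS-5 only against 714 ± 164 in co-culture (SD, n = 3 each), from 18337 and 65037 estimated counts summed over each group. Pfkl had the p-value of rank 26 among the 13221 genes tested and passed the threshold of 0.1 (edgeR quasi-likelihood test, adjusted p = 0.0734).

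Of the 8 members that passed the filter on low counts, Pfkl was the only one called, against 4.38% of all genes tested (579 of 13221, of which 491 or 3.71% were higher and 88 or 0.666% were lower in co-culture). At an unadjusted p under 0.05, Pfkl and Pfkp were higher and Tigar lower, where 14.3% of all genes had such a p, 8.62% higher and 5.63% lower. Of the 8, 3 were higher in CPM in every co-culture library than in any MS-5 only library, against 11.6% of all genes, and 1 was lower in this way, against 9.6%. The median log2 fold change of the 8 members was 0.12, and that of all genes tested was -0.02. On leaving out MO1, MO2 or MO3, no gene passed the threshold in the whole fit, so that none of the calls given for members or gene lists held in those fits.

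The excess of Pfkl over the MS-5 only mean was 650 CPM in MC1, 458.9 in MC2 and 324.1 in MC3. MC2 thus held 32.0% of it, where it held 79.5% of the leukocyte marker excess. The split depends on the scale, since MC3 was the lowest co-culture library in CPM but the highest in TPM, where MC2 was the lowest. With MC2 left out, the log2 fold change of Pfkl was 1.61 ± 0.30 (SE; adjusted p = 0.0929, edgeR). Within the pair of libraries that stood apart, MC3 was 2.77-fold above MO2, and the mean of MC1 and MC2 was 3.12-fold above that of MO1 and MO3. The call was lost, at the same direction and a similar size, on leaving out MO1, MO2 or MO3 (log2 fold change 1.72, 1.49 and 1.60 in this order, adjusted p = 0.300, 0.149 and 0.290).

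Pfkm (chr15:98092589-98132451, plus strand), the muscle-type subunit, stood at the level of Pfkl in MS-5 cells alone. Its TPM was 72.5, 121.2 and 68.0 in the MS-5 only libraries and 91.6, 79.2 and 137.3 in the co-culture libraries. These TPM values overlapped, with MO2 and MC3 the highest of their groups. In CPM, where each library is scaled by its composition, Pfkm did not overlap, at 184 ± 10.2 in MS-5 only against 218.5 ± 10.3 in co-culture (SD, n = 3 each), a log2 fold change of 0.25 ± 0.13 (SE; adjusted p = 0.464, edgeR). With a covariate that marks MO2 and MC3 it passed the threshold (adjusted p = 0.0586), at the same log2 fold change of 0.25. That fit called 3999 of the 13221 genes tested, against 579 in the main fit.

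Pfkp (chr13:6579768-6648777, minus strand), the platelet-type subunit, was the least abundant isozyme in every library. Its TPM was 15.8, 19.3 and 14.9 in the MS-5 only libraries and 23.6, 21.2 and 28.4 in the co-culture libraries, so that the groups did not overlap. CPM was 39.9 ± 4.49 in MS-5 only against 55.8 ± 6.43 in co-culture (SD, n = 3 each), 1.40-fold higher (log2 fold change 0.49 ± 0.15, SE), which did not pass the test over all genes (adjusted p = 0.193, edgeR). It passed with a covariate that marks MO2 and MC3 (adjusted p = 0.0158), with DESeq2's Wald test (adjusted p = 0.0569) and without MO2 and MC3 (adjusted p = 0.0823). These fits called 3999, 1268 and 1702 of all genes, in this order, against 579 in the main fit. The fold was 1.42 for MC3 over MO2 and 1.39 for the other 4 libraries, and MC2 held 32.4% of the excess.

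**Figure D1:**
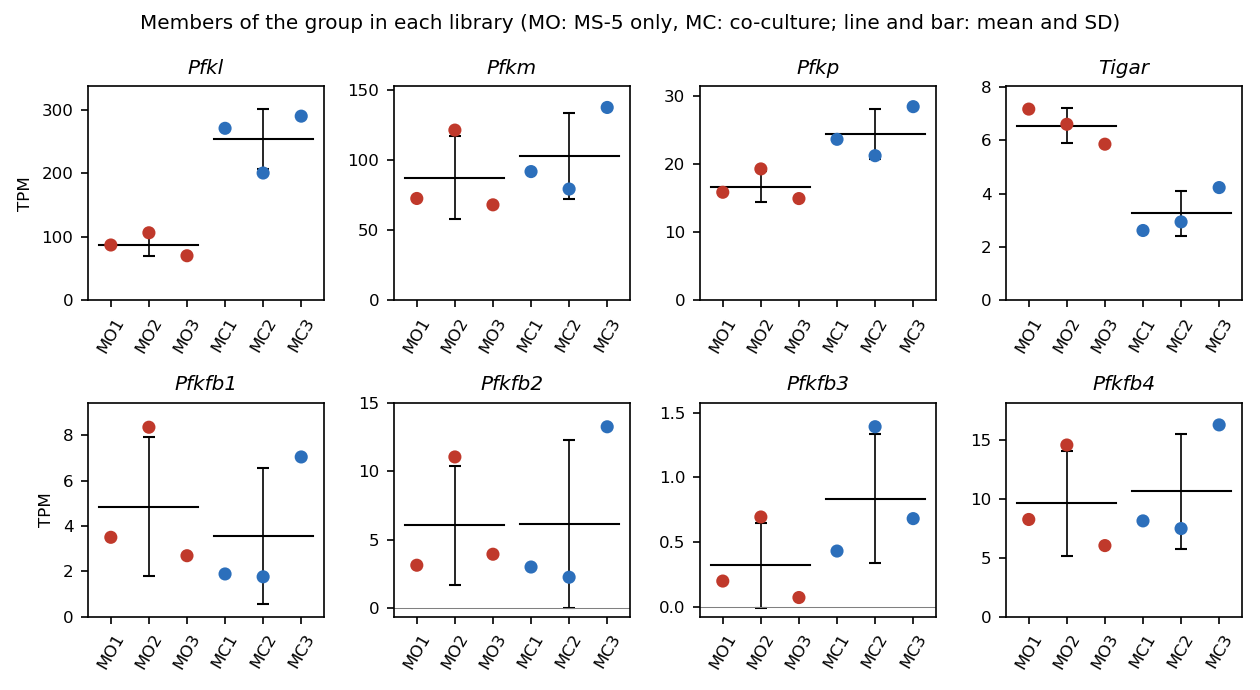
TPM (vertical axes, each from 0 or just below it) of the 8 members with counts in each of the 6 libraries (horizontal axes), with MS-5 only in red and co-culture in blue; the horizontal line is the group mean and the bar its SD. Pfkl lies at 200.7 to 290.4 in co-culture against 70.2 to 106.5 in MS-5 only, Tigar lies lower in co-culture, and MO2 and MC3 are the highest libraries of their groups for Pfkl, Pfkm, Pfkp, Pfkfb1, Pfkfb2 and Pfkfb4.

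The make-up of the phosphofructokinase transcript pool was then computed within each library, where scaling between libraries cancels. Pfkl made up 49.7%, 43.1% and 45.9% of the summed TPM of the isozymes in MO1, MO2 and MO3, and 70.2%, 66.7% and 63.7% in MC1, MC2 and MC3. Pfkm made up 41.3%, 49.1% and 44.4% in MS-5 only against 23.7%, 26.3% and 30.1% in co-culture. Pfkp made up 9.03%, 7.80% and 9.74% in MS-5 only against 6.11%, 7.04% and 6.23% in co-culture. All 3 shares separated the groups without overlap, with differences of 20.6, -18.2 and -2.40 percentage points for Pfkl, Pfkm and Pfkp. Each had p = 0.1 in an exact two-sided permutation test, the smallest p that 3 libraries against 3 allow. Since the shares of a library sum to 100%, they are not independent of each other, and the lower shares of Pfkm and Pfkp went with CPM values that were higher and not lower in co-culture.

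Put as ratios of TPM, Pfkl stood at 1.20, 0.879 and 1.03 times Pfkm in the MS-5 only libraries and at 2.96, 2.53 and 2.12 times Pfkm in the co-culture libraries. Against Pfkp the ratio was 5.25 ± 0.466 in MS-5 only against 10.4 ± 1.02 in co-culture (SD, n = 3 each). In MS-5 only, Pfkl and Pfkm changed places between libraries, so that their order is not resolved beyond the spread, while Pfkp was below both throughout. In co-culture the order Pfkl, Pfkm, Pfkp held in every library.

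The summed phosphofructokinase TPM was 175.5, 246.9 and 153.1 in MS-5 only against 386.4, 301.1 and 456.0 in co-culture, a log2 difference of 1.00 (exact two-sided permutation p = 0.1, the smallest possible). Pfkl accounted for most of this difference, since its mean TPM was 88.0 ± 18.1 in MS-5 only against 254 ± 47.2 in co-culture, while the mean of Pfkm was 87.2 ± 29.5 and 102.7 ± 30.6 (SD, n = 3 each). No isozyme shared a 31-base word with another member in its annotated transcripts, but 5.29% of the words of Pfkp also occur in other genes, nearly all in Pitrm1, which overlaps it on the opposite strand, and 0.463% of those of Pfkl occur elsewhere.

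**Figure D2:**
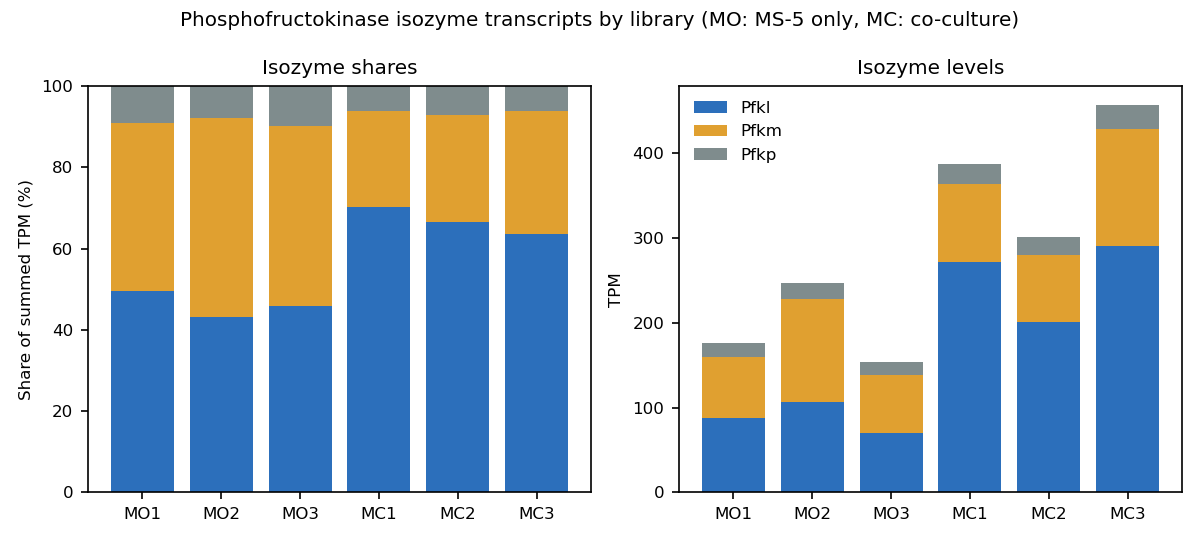
Left, share of the summed phosphofructokinase TPM (%) held by Pfkl, Pfkm and Pfkp in each library; right, the same transcripts as TPM. Pfkl takes 43.1% to 49.7% of the bars in MS-5 only and 63.7% to 70.2% in co-culture, and the taller co-culture bars on the right gain mainly in the Pfkl segment.

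Single transcripts carried most of the Pfkl and Pfkm signal. Pfkl-201, which codes for the protein, held 91.5% of the mean Pfkl TPM in MS-5 only against 95.3% in co-culture. Pfkm-201 held 92.0% and 92.3% of Pfkm. Pfkp was split between the coding transcripts Pfkp-201, with 62.9% and 59.7%, and Pfkp-207, with 30.2% and 28.6%. With protein coding transcripts alone, an alternative chosen after seeing the data, the log2 fold change of Pfkl was 1.61 ± 0.22 (SE), but far fewer genes passed the threshold (3 in all) and Pfkl missed it (adjusted p = 0.112, edgeR).

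The bifunctional PFKFB enzymes, which hold a kinase and a phosphatase domain in 1 chain, were present at far lower levels than phosphofructokinase. Their summed TPM was 15.1, 34.7 and 12.8 in MO1, MO2 and MO3 and 13.5, 12.9 and 37.3 in MC1, MC2 and MC3. The groups overlapped, and the difference of mean log2(TPM + 0.5) was -0.01 (exact two-sided permutation p = 1). MO2 and MC3 held the highest sums, so that the position of these libraries was larger than any difference between the groups. Relative to the phosphofructokinase sum, PFKFB transcripts stood at 8.61%, 14.0% and 8.33% in MS-5 only against 3.49%, 4.29% and 8.17% in co-culture (exact two-sided permutation p = 0.1, the smallest possible), with MC3 just under the lowest MS-5 only library.

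Pfkfb4 (chr9:108991778-109032228, plus strand), best known for its expression in testis and in tumour cells under hypoxia, was the most abundant PFKFB gene in TPM in every library, with 42.1% to 54.7% of the PFKFB sum in MS-5 only and 43.7% to 60.5% in co-culture. Its TPM was 8.26, 14.6 and 6.05 in MS-5 only against 8.14, 7.49 and 16.3 in co-culture, and the groups overlapped. The log2 fold change was -0.004 ± 0.22 (SE; adjusted p = 0.998, edgeR), and its sign turned under 10 of 19 alternatives. Coding transcripts held 64.9%, 42.6% and 29.4% of its TPM in the MS-5 only libraries and 50.8%, 34.6% and 24.6% in the co-culture libraries. The rest lay mainly in Pfkfb4-202 and Pfkfb4-209, annotated as targets of nonsense-mediated decay, and in the processed transcript Pfkfb4-205. Among the coding transcripts, Pfkfb4-201 was assigned 0, 143.6 and 0 counts in MS-5 only against 277.2, 94.96 and nearly 0 in co-culture, while Pfkfb4-203 was assigned 416.7, 239.2 and 124.7 against 124.9, 101.5 and 273.4. The split between this pair did not follow the groups.

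Pfkfb2 (chr1:130689182-130729253, minus strand), the isoform known from heart, had TPM values of 3.14, 11.04 and 3.94 in MS-5 only against 3.01, 2.26 and 13.2 in co-culture. The values were high in MO2 and MC3 and low in the other 4 libraries. The log2 fold change was -0.14 ± 0.56 (SE; adjusted p = 0.975, edgeR), with 1.04-fold for MC3 over MO2 and 0.757-fold for the other 4 libraries. Of the 31-base words in its transcripts, 18.8% also occur in other genes, mostly in Gm29427, which overlaps it on the same strand, so that its level is uncertain. The coding transcript Pfkfb2-203 held 39.6% of its mean TPM in MS-5 only and 35.7% in co-culture, and the decay targets Pfkfb2-206 and Pfkfb2-205 held 16.6% and 13.0% in MS-5 only, against 17.4% and 8.87% in co-culture.

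Pfkfb1 (chrX:150588229-150643878, plus strand), the isoform known from liver, had TPM values of 3.50, 8.36 and 2.69 in MS-5 only against 1.89, 1.76 and 7.05 in co-culture, again highest in MO2 and MC3. The log2 fold change was -0.50 ± 0.43 (SE; adjusted p = 0.713, edgeR) and the groups overlapped. It was -0.21 without MO2, -0.27 without MC2 and -0.97 without MC3. Within each set of libraries it was lower in co-culture, at 0.802-fold for MC3 over MO2 and 0.626-fold for the other 4. Its main transcript, the coding Pfkfb1-201, held 47.9% of its mean TPM in MS-5 only and 48.2% in co-culture, followed by the coding Pfkfb1-206 with 27.6% and 19.3%. The processed transcripts Pfkfb1-203 and Pfkfb1-207 held 13.0% and 1.85% in MS-5 only, against 8.50% and 12.2% in co-culture.

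Pfkfb3 (chr2:11471433-11554077, minus strand), the isoform with the highest kinase over phosphatase activity and an inducible activator of glycolysis, was the least abundant PFKFB gene. It was assigned 21, 18 and 3 counts in MO1, MO2 and MO3, against 20, 53 and 26 in MC1, MC2 and MC3. Its TPM was 0.200, 0.695 and 0.0733 in MS-5 only against 0.432, 1.39 and 0.682 in co-culture. In TPM the groups overlapped, since MO2 was above MC1 and MC3. The log2 fold change of 1.18 ± 0.77 (SE) did not pass the test (adjusted p = 0.592, edgeR). In CPM, MC2 held 83.4% of the co-culture excess of Pfkfb3, against 79.5% of the leukocyte marker excess. The Pfkfb3 share rests on few counts, with excesses of 0.0946, 1.69 and 0.241 CPM in MC1, MC2 and MC3. Without MC2 the log2 fold change was 0.39 ± 0.77 (SE; adjusted p = 0.938, edgeR). The part that leukocyte RNA played in the Pfkfb3 values was not tested.

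At the level of transcripts, 55.5% of the co-culture mean TPM of Pfkfb3 lay in Pfkfb3-210, a processed transcript of 1736 bases without an annotated coding sequence, which was listed at 0 in every MS-5 only library but was assigned 15.9, 26.4 and 10.5 counts in the co-culture libraries. Of its bases, 97.0% lie within exons that coding transcripts also use and 34 bases are in no other transcript, so that its assignment rests on few reads. The coding transcript Pfkfb3-206 was assigned 21, 3.44 and 1.40 counts in MS-5 only against 3.07, 0 and 0 counts in co-culture. Another coding transcript, Pfkfb3-220, was assigned 0, 9.57 and 0 counts against 0, 21.1 and 13.6, and the non-coding Pfkfb3-218 and Pfkfb3-211 held under 4 counts in every library. With protein coding transcripts alone, the log2 fold change of Pfkfb3 was 0.05 ± 0.91 (SE; adjusted p = 0.996, edgeR).

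Tigar (chr6:127085116-127109557, minus strand), the phosphatase of fructose 2,6-bisphosphate, did not pass the test. Its TPM was 7.16, 6.595 and 5.85 in MO1, MO2 and MO3 and 2.62, 2.94 and 4.22 in MC1, MC2 and MC3. Every co-culture library was below every MS-5 only library. CPM was 13.6 ± 1.91 in MS-5 only against 8.60 ± 0.883 in co-culture (SD, n = 3 each), from 1062 and 776 summed counts, a fold of 0.631 (log2 fold change -0.66 ± 0.18, SE). This missed the threshold over all genes (adjusted p = 0.129, edgeR; unadjusted p = 0.00776), but passed it with a covariate that marks MO2 and MC3 (adjusted p = 0.0262), with DESeq2's Wald test (adjusted p = 0.0288) and without MO2 and MC3 (adjusted p = 0.0945, an alternative chosen after seeing the data). These fits called 3999, 1268 and 1702 of all genes, in this order, against 579 in the main fit. The fold was 0.705 for MC3 over MO2 and 0.600 for the other 4 libraries. In bulk RNA, less of a transcript per cell and fewer cells that carry it cannot be told apart.

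The transcripts of Tigar differed in this comparison. Tigar-201, which codes for the protein, had TPM values of 4.30, 5.57 and 3.43 in MS-5 only against 2.35, 2.77 and 4.07 in co-culture, and these overlapped. Tigar-202, annotated as a target of nonsense-mediated decay, had 2.87, 1.03 and 2.42 in MS-5 only against 0.268, 0.168 and 0.153 in co-culture, from 44.4, 12.9 and 33.9 counts against 5.42, 2.63 and 2.10. Its share of the mean Tigar TPM was 32.2% in MS-5 only against 6.02% in co-culture. With protein coding transcripts alone, the log2 fold change of Tigar was -0.52 ± 0.17 (SE; adjusted p = 0.261, edgeR). Tigar-202 differs from the other transcripts of the locus by only 7 bases of its own, so that this split depends on how reads were shared between them.

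**Figure D3:**
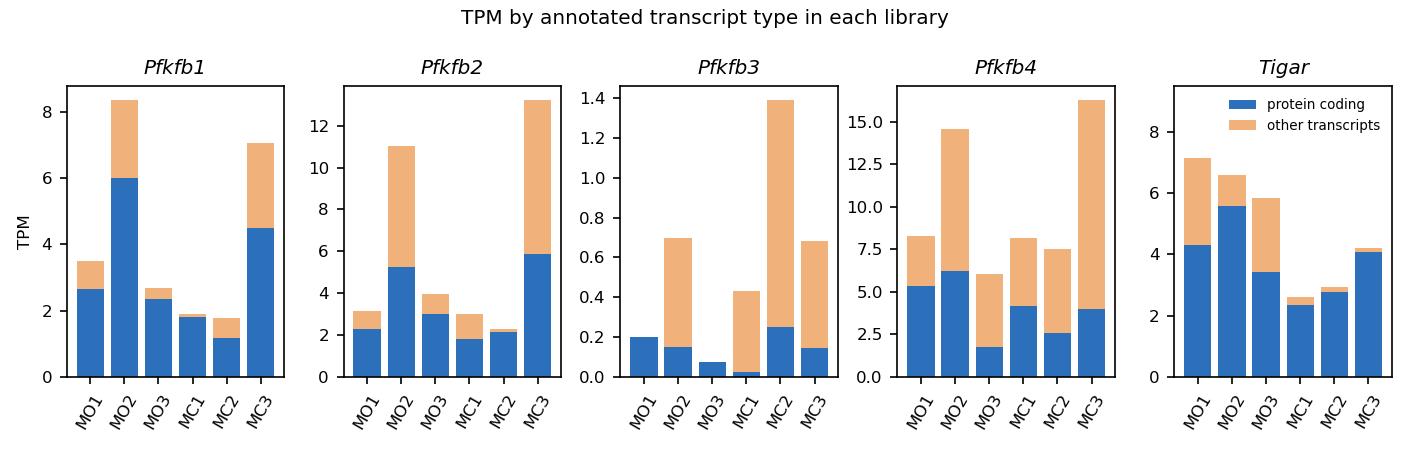
TPM of the PFKFB genes and Tigar in each library, stacked by annotated transcript type (protein coding in blue, all other types in orange). Other types hold most of the Pfkfb3 TPM in every co-culture library and in MO2. For Tigar they hold 0.153 to 0.268 TPM in co-culture against 1.03 to 2.87 TPM in MS-5 only.

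Fbp1 (chr13:62864753-62888282, minus strand) and its neighbour Fbp2 (chr13:62836877-62858422, minus strand), which catalyse the reverse of the phosphofructokinase step, were at 0 estimated counts in all 6 libraries. A count of 0 allows up to 3 counts, or 0.0841 to 0.125 CPM (before TMM) in a library and 0.0177 CPM over all 6, for counting error only. Neither gene shared a 31-base word with another gene.

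The members were then set beside the other genes of glycolysis. Of 18 listed, all passed the filter, 4 were higher in co-culture and none was lower, 16 had a positive log2 fold change and the median was 1.10. Slc2a1, the main glucose transporter of most cells, had CPM of 43.9, 38.3 and 45.0 in MS-5 only against 133.9, 113.3 and 92.2 in co-culture (log2 fold change 1.42 ± 0.17, SE; adjusted p = 0.0734, edgeR). Hk2, the inducible hexokinase, had CPM of 20.3, 16.3 and 11.4 in MS-5 only against 34.3, 36.3 and 32.8 in co-culture (log2 fold change 1.11 ± 0.22, SE; adjusted p = 0.0779). MC1, MC2 and MC3 held 43.1%, 33.4% and 23.5% of the excess of Slc2a1 and 33.1%, 36.7% and 30.3% of that of Hk2.

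The other pair of called glycolysis genes differed in this respect. Slc2a3, a high-affinity glucose transporter of neurons and blood cells, was assigned 1, 2 and 0 counts in MS-5 only against 27, 131 and 42 counts in co-culture (adjusted p = 0.0745, edgeR). Eno2, the enolase of neurons, had CPM of 0.279, 0.605 and 0.272 in MS-5 only against 5.34, 33.4 and 4.66 in co-culture (log2 fold change 5.18 ± 0.99, SE; adjusted p = 0.0745). MC2 held 73.2% of the excess of Slc2a3 and 78.1% of that of Eno2, as it did for the 9 called leukocyte markers, whose excess in MC2 was between 2.58 and 7.31 times the mean of MC1 and MC3. For Pfkl this ratio was 0.942, for Pfkp 0.958 and for Pfkfb3 10.04. What leukocyte RNA added to the values of any of these genes was not tested.

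**Figure D4:**
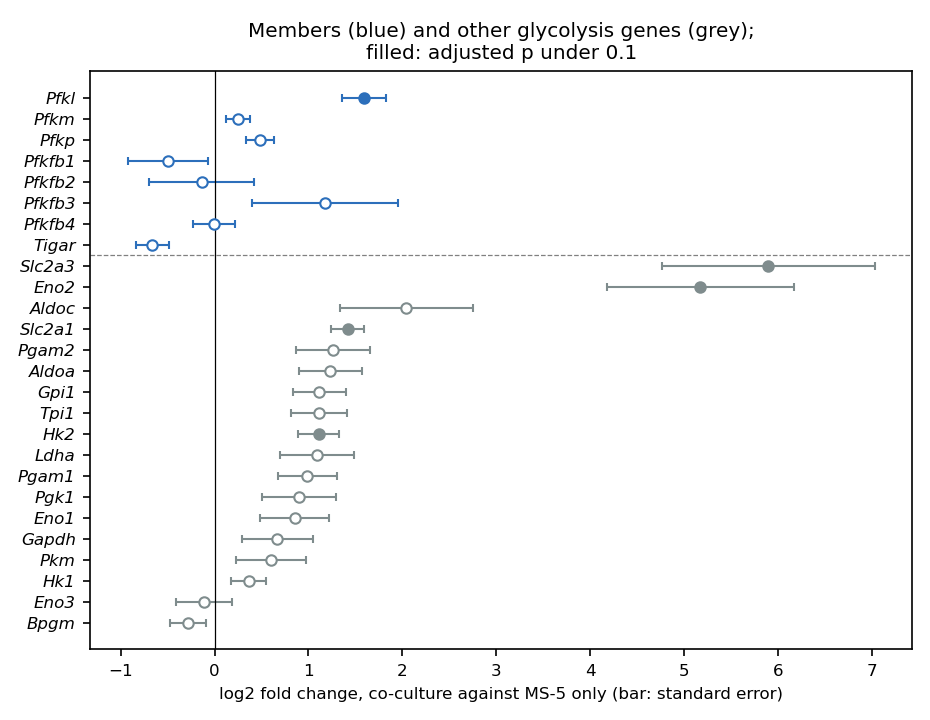
Log2 fold change of co-culture against MS-5 only (horizontal axis) with its standard error for the 8 members tested (blue) and the 18 other glycolysis genes (grey); filled points passed the adjusted p threshold of 0.1. Pfkl lies at 1.60, under Slc2a3, Eno2 and Aldoc and above the other 15 glycolysis genes, of which Eno3 and Bpgm are below 0. Of the other members, Pfkfb3 lies at 1.18 with a wide error and Tigar lowest at -0.66.

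**Figure D5:**
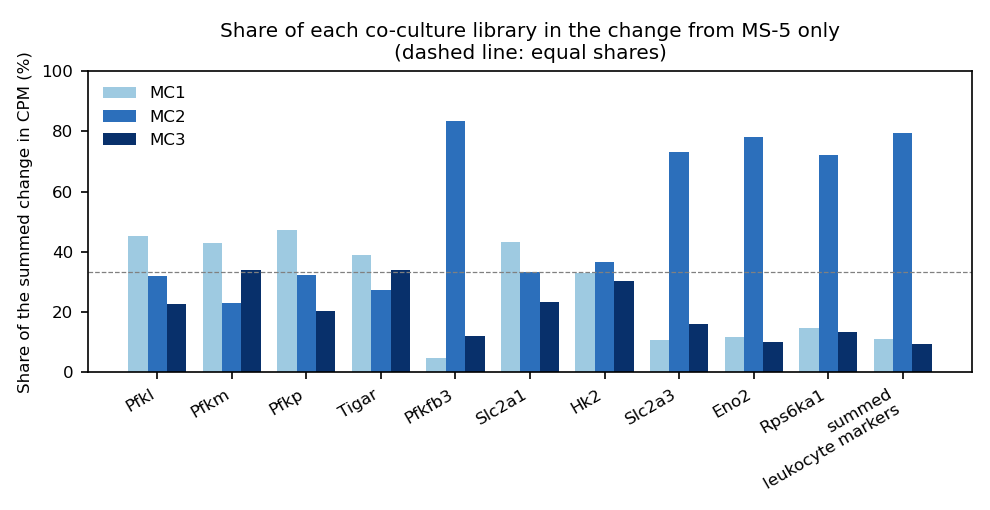
Share (%) of the summed difference in CPM from the MS-5 only mean held by MC1, MC2 and MC3, for members, called genes of the lists and the summed leukocyte markers; the dashed line marks equal shares. MC2 holds 32.0% of the Pfkl and 32.4% of the Pfkp difference, but 83.4% for Pfkfb3, 73.2% for Slc2a3, 78.1% for Eno2 and 79.5% for leukocyte markers.

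Genes that draw on the same sugar phosphates or run the pathway backwards were not called. Among 9 other gluconeogenesis genes, 6 passed the filter and none passed the test, and the median log2 fold change was -0.07. The lowest p belonged to Slc37a4, the glucose 6-phosphate transporter of the endoplasmic reticulum, with 0.78 ± 0.20 (SE; adjusted p = 0.125, edgeR), followed by Pck2, the mitochondrial phosphoenolpyruvate carboxykinase, with 0.26 ± 0.17 (SE; adjusted p = 0.586). G6pc, like Fbp1 known from liver, was at 0 in all 6 libraries. By the same fit, 1 of these genes was higher at an unadjusted p under 0.05, and DESeq2 called 1.

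Among 15 enzymes at the branch points of glucose 6-phosphate and fructose 6-phosphate, which lead to the pentose phosphate, hexosamine and mannose pathways and to glycogen, none passed the test and the median log2 fold change was -0.003. Pgm1, a phosphoglucomutase, had CPM of 47.1, 34.5 and 50.5 in MS-5 only against 110.0, 95.0 and 64.4 in co-culture, groups that did not overlap, and just missed the threshold (log2 fold change 1.03 ± 0.25, SE; adjusted p = 0.104, edgeR). Gnpda1, a glucosamine 6-phosphate deaminase, was next, with -0.26 ± 0.16 (SE; adjusted p = 0.541). Pgm1 was the only gene of this list at an unadjusted p under 0.05, and DESeq2 called 1 gene.

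Of 19 genes of kinases, ligases and other enzymes or their subunits known to act on phosphofructokinase or PFKFB proteins, 1 was higher and none was lower, with a median log2 fold change of 0.06. The called gene was Rps6ka1, which encodes the kinase RSK1, with CPM of 6.35, 7.38 and 5.21 in MS-5 only against 19.4, 71.4 and 18.2 in co-culture (log2 fold change 2.52 ± 0.58, SE; adjusted p = 0.0946, edgeR), and MC2 held 72.2% of its excess. Fzr1, which encodes the activator CDH1 of the ubiquitin ligase that marks PFKFB3 for degradation, had the next lowest p and did not overlap, at 115.3, 117.7 and 113.8 CPM in MS-5 only against 102.4, 93.1 and 93.9 in co-culture (log2 fold change -0.26 ± 0.11, SE; adjusted p = 0.371).

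Of 15 p53 target genes, listed because Tigar is such a target, none passed the test, 1 was higher and 2 lower at an unadjusted p under 0.05, and the median log2 fold change was -0.10. DESeq2 called 2 of them. Cdkn1a, the cell cycle inhibitor p21, had CPM of 120.0, 117.9 and 123.0 in MS-5 only against 168.1, 151.0 and 167.7 in co-culture (log2 fold change 0.43 ± 0.12, SE; adjusted p = 0.141, edgeR). Aen, an exonuclease, lay in the opposite direction, with 99.2, 65.8 and 84.8 in MS-5 only against 55.1, 62.2 and 46.7 in co-culture (log2 fold change -0.61 ± 0.19, SE; adjusted p = 0.207). Neither pair of groups overlapped, and the directions of the 15 genes were mixed, with 7 positive.

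The genes whose log2 CPM most resembled that of Pfkl over the 6 libraries, among 9071 genes with a mean of at least 10 CPM, were Cntnap5a (Pearson r = 0.9996), Stk24 (0.9975), Npepps (0.9972), Sdc4 (0.9967) and Slc2a1 (0.9965). The 6 points share the group difference and the depth of their libraries, so that these values describe likeness of pattern and carry no test. Cntnap5a had CPM of 35.6, 28.3 and 32.5 in MS-5 only against 82.0, 70.9 and 60.5 in co-culture. In CPM Pfkl stood at 267.8, 202.3 and 238.9 in MS-5 only against 886, 695 and 560.5 in co-culture, so that in both genes MO2 was the lowest MS-5 only library and the co-culture libraries stood in the order MC1, MC2, MC3. In TPM both genes were instead highest in MO2 and MC3 within their groups.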

How the data were processed

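RNA-seq libraries of MS-5 cells alone and in co-culture, 3 of each, were grouped from the sample labels. The authors quantified paired reads with Kallisto (0.43.0, per the submitters' processing notes) on a mouse transcript index of GRCm38 and deposited an estimated count per transcript, not normalised between libraries, and a TPM value, which divides by effective length and sums to the same total in each library. Human reads could be counted only where they resembled mouse transcripts. Identifiers of 116728 of 118489 transcripts matched GENCODE M21, and the other 1761 (0.477% to 0.562% of counts) were left out. Estimated counts were summed per gene, rounded, filtered (filterByExpr, 13221 of 35968 genes), TMM normalised (factors 0.923 to 1.17) and tested with the quasi-likelihood test of edgeR 4.0.16 in R 4.3.3 (Benjamini-Hochberg over all 13221 genes, threshold 0.1). Sleuth, which the study used, was not run. CPM values are TMM normalised, and the SE is the log2 fold change over the square root of F. Shares and sums were compared by exact permutation over libraries. Scripts were tested on simulated data. Total estimated counts were 23978881 to 35694987, and Pfkfb3 had few of them.

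The members and gene lists were chosen with earlier results of these data known. All members are named, and of each pathway list the called genes or, if fewer than 2, the 2 with the lowest p, while marker lists are given by counts and sums; genes like Pfkl are the 5 with the highest r, and transcripts those with at least 10% of a member's TPM. Alternatives were DESeq2 1.42.0 (size factors, Wald test), library size, limma 3.58.1 on log2(TPM + 0.5), pseudocounts of 0.1 and 1, an offset for effective length, no filter or a minimum of 5 counts in 3 libraries, a replicate block, a covariate that marks MO2 and MC3, leaving out each library, a threshold of 0.05 and, chosen after seeing the data, protein coding transcripts alone and leaving out MO2 and MC3. Promoters are from RefSeq, in which all 10 members matched. Protein sequences were not used here, and some results are left out.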

Additional observations from a re-analysis of the deposited data

How the results depend on the processing

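Over 19 alternatives the log2 fold change of Pfkl ranged from 1.40 to 1.74 and passed the threshold in 15. Those of Pfkm, Pfkp, Pfkfb1, Pfkfb3 and Tigar kept their sign in all 19. Among all genes, the 579 calls became 1268 with DESeq2's Wald test, 356 and 224 with limma on log2(TPM + 0.5) and log2(TPM + 1), 3999 with a covariate for MO2 and MC3 (1835 higher, 2164 lower), 3 with protein coding transcripts alone, 1702 without MO2 and MC3, 2 at a threshold of 0.05, and from 0 (on leaving out MO1, MO2 or MO3) to 549 with 1 library left out (283 without MC1, 281 without MC2). Of the members, 3 were called by DESeq2 (Pfkl, Pfkp, Tigar) and without MO2 and MC3, 4 with the covariate (also Pfkm), 0 with protein coding transcripts alone and at 0.05, and 0 to 1 with a library left out. The covariate was set for the libraries that stand apart and leaves 3 residual degrees of freedom.

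Called glycolysis genes went from 4 to 7 by library size, 10 with DESeq2, 9, 11 and 9 with limma at pseudocounts of 0.5, 0.1 and 1, 16 with the covariate, 0 at 0.05, and 0 to 6 with a library left out. Gluconeogenesis genes went from 0 to 1 by library size, DESeq2 and the covariate. Branch enzymes went from 0 to 1 with DESeq2's size factors or Wald test, library size, limma at each pseudocount and no filter, to 3 with the covariate, and 0 to 1 with a library left out. Regulating enzymes went from 1 to 0 by library size, limma and at 0.05, to 4 with the covariate, and 0 to 1 with a library left out. Called p53 targets went from 0 to 1 by library size, 2 with DESeq2 and 4 with the covariate.

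The log2 difference of summed PFKFB TPM ranged from -0.50 to 0.42 with a library left out (0.42 without MO2, 0.22 without MC1, 0.25 without MC2), that of Pfkfb2 from -0.89 to 0.34, turning to 0.34, 0.08 and 0.15 without the same libraries. That of Pfkfb4 ranged from -0.20 to 0.17 with a library left out and turned to 0.0048 and 0.0046 with DESeq2's size factors and Wald test, 0.14, 0.15 and 0.13 with limma at pseudocounts of 0.5, 0.1 and 1, 0.023 with the replicate block, 0.17, 0.05 and 0.07 without MO1, MO2 and MC2, and 0.024 without MO2 and MC3. The causes were not tested.

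Deviations of same-numbered libraries from their group means correlated at 0.53, -0.29 and -0.52, and MO2 went with MC3 (0.73). These values cannot decide whether replicate numbers pair the libraries, since MO2 and MC3 stand apart and carry different numbers. With the replicate number as a block, 444 genes (443 higher, 1 lower) and 1 member (Pfkl, log2 fold change 1.58, adjusted p = 0.0754) were called. For the shares and the phosphofructokinase sum, the exact permutation p within blocks was 0.25, the smallest that 3 pairs allow. Pfkfb3 rested on 42 and 99 estimated counts summed over MS-5 only and co-culture, and Fbp1 and Fbp2 on none.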
